A study of Mus musculus with 16 samples.

Results

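The 37 genes described here encode the proteins that copy DNA in S phase, supply its deoxynucleotides and restore chromatin behind the fork. They form a list of replication factors and nucleotide synthesis enzymes picked by gene name, with earlier results of these data known. On the Affymetrix Murine Genome U74Av2 array 35 of them had a probe set, a group of short oligonucleotides for 1 transcript, annotated with that gene alone, out of 8251 gene symbols with such a probe set. For the 11 genes with several such probe sets, the one with the highest mean log2 signal over all arrays was used. Tyms shares its probe sets with another symbol and was not named, and Pole was not analysed here. By role, 12 of the 35 genes license origins or form the helicase, 10 belong to the polymerases, the primase, the clamp and its loader, 6 bind single strands or act as flap nuclease, ligase or topoisomerase, 4 make nucleotides and 3 act on chromatin and DNA methylation.

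The lungs came from mice that lack the membrane glycoprotein T1α (podoplanin, gene Pdpn) in all tissues, T1α(-/-), and from T1α(+/+) mice, both bred from T1α(+/-) parents. Each of the 16 arrays held total RNA of 1 whole lung. There were 3 (-/-) lungs (replicates F to H) and 3 (+/+) lungs (N to P) at term, taken from newborns just after delivery, and 5 (-/-) lungs (A to E) and 5 (+/+) lungs (I to M) at embryonic day 18.5 (E18.5). Strain, sex and litter are not given in the sources used here, and no treatment is named.

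An origin of replication is licensed when the origin recognition complex, Cdc6 and Cdt1 load the Mcm helicase onto DNA, and it fires in S phase when Cdc45 and other factors activate the helicase. DNA polymerases then copy both strands, held by the Pcna clamp that replication factor C loads, while ribonucleotide reductase and thymidine kinase supply precursors. Many of these genes are transcribed under E2F factors as cells enter S phase, and cell division in the mouse lung is known to slow in late gestation.

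The values are signal intensities scaled to a common level on every array, and they were compared as log2(signal + 16), a scale that understates the change of low genes. Differences are log2 values with their standard error (SE) from limma, and a gene is called lower or higher when its Benjamini-Hochberg adjusted p was under 0.05. A probe set was tested when its median signal in at least 1 group of the comparison exceeded a level of 47.7 to 53.4, depending on the comparison. Since this filter passes a gene through the group in which it is high, counts are also given for all 35 genes from a fit of all 12422 probe sets. Signals of different probe sets are not comparable with each other. In whole-lung RNA, fewer cells of a type and less RNA per cell cannot be told apart. The Pdpn signal, a check of the labels, was 15.9 ± 12.2 in (-/-) and 114 ± 90.4 in (+/+) lungs at term (SD, n = 3 each), and 13.5 ± 8.34 in (-/-) and 109 ± 29.2 in (+/+) lungs at E18.5 (SD, n = 5 each). The surfactant protein gene Sftpc, which marks lung epithelium, was at 5027 or above on every array. Some arrays stood apart. The bacterial control probe sets with no added transcript averaged 35.3 on E18.5 (+/+) replicate I and 3.58 to 11.05 on the other 15 arrays, so results that rest on it are also given without it. The summed signal of 8 heart markers was 11240 on term (-/-) replicate F, 6459 on term (+/+) replicate O, 7186 on E18.5 (-/-) replicate E and 24786 on E18.5 (+/+) replicate M, against 1103 to 3488 on the other 12 arrays. The ratio of 3′ to 5′ probe sets of Gapdh, a sign of RNA integrity, was 2.63 on term (-/-) replicate G and 2.55 on term (+/+) replicate O, and 0.827 to 1.84 on the others.

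Between the times, the replication genes were mostly lower at term. With genotype as a covariate, 19 of the 35 genes were lower at term than at E18.5 and 0 were higher in the fit of all probe sets, of which 16.1% were lower. The difference was below 0 for 33 of the 35 genes, and its median was -0.66, against 65.4% of all probe sets below 0 and a median of -0.16. After the filter 22 of the genes were tested, 17 were lower and 0 were higher, where 23.5% of the 6458 probe sets tested were lower and 21.5% higher. The median over these 22 genes was -0.83, and that over all probe sets tested was -0.06. The largest differences were those of Mcm5 (-1.92), Uhrf1 (-1.89), Tk1 (-1.86), Top2a (-1.67), Mcm7 (-1.43) and Lig1 (-1.32).

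The scaling of the arrays and the filter moved these counts. When each array was centred on its median, the median over all probe sets tested moved to 0.06, with 15.5% lower and 25% higher, and 16 of the 22 genes were lower with a median of -0.71. With a filter on the mean over all arrays, which was chosen after the data were seen, 19 genes were tested, 14 were lower against 23.2% of all probe sets, and their median was -0.75. Without replicate I, 17 of 22 genes tested were lower with a median of -0.81, where 1517 of 6489 probe sets were lower. Without the 4 arrays of high heart signal, a choice also made after the data were seen, 15 of 23 genes tested were lower with a median of -0.87. In that fit 1095 of 6541 probe sets were lower.

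**Figure D1:**
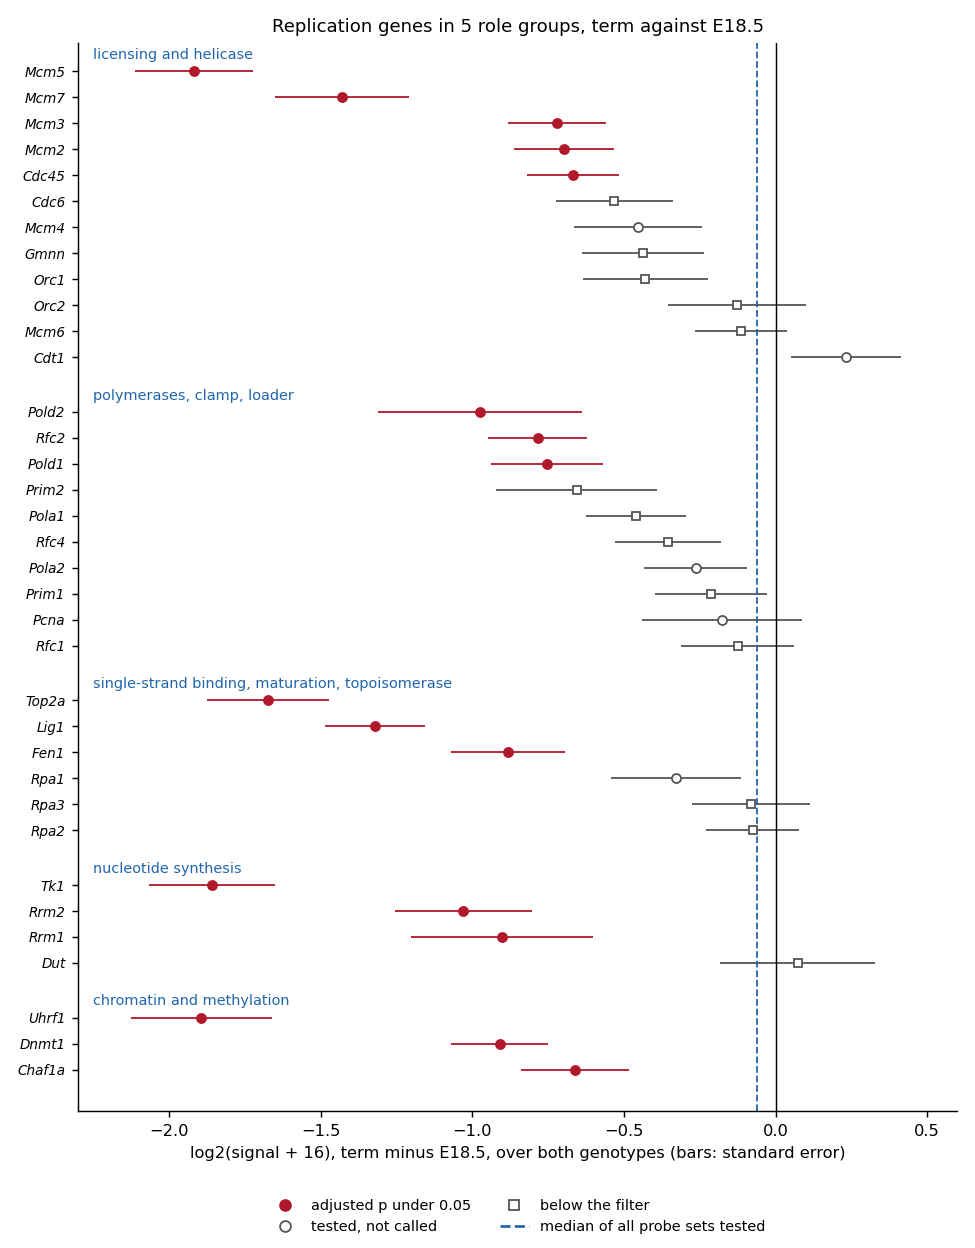
Difference between term and E18.5 over both genotypes for the 35 replication genes, in log2(signal + 16), by role. Points are the limma estimates and bars their SE, filled points have an adjusted p under 0.05, squares are genes below the filter, and the dashed line is the median of all probe sets tested (-0.06). All 17 filled points lie left of that line, from -1.92 for Mcm5 to -0.66 for Chaf1a.

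The promoters of the 6 genes with the largest differences are shown because these genes moved together and are of a class known to be under E2F factors. The windows of 300 bases run from upstream of the annotated transcription start into the transcript and come from RefSeq (GRCm38.p6), which gave a window for 32 of the 37 genes. Where a gene had several windows, as Uhrf1, Mcm7 and Lig1 did, that with most E2F matches, and then most matches in all, is printed. This choice favours E2F matches in those genes. Sequences run 5′ to 3′ on the strand of the gene. Capitals mark every match, on either strand, to the E2F letters TTTCGCGC, TTTGGCGC, TTTCCCGC or TTTGCCGC, to the cell cycle homology letters TTTGAA or TTCGAA, or to CCAAT. Where capital runs join, matches overlap or adjoin.
Mcm5, chr8:75109259-75109558, plus strand: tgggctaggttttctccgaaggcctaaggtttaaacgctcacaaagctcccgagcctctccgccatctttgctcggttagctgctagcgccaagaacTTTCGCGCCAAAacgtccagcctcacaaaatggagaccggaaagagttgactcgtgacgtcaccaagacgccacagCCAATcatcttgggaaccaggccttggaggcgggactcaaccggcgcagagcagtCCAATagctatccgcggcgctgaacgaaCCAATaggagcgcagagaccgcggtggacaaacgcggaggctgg
Uhrf1, chr17:56304063-56304362, plus strand: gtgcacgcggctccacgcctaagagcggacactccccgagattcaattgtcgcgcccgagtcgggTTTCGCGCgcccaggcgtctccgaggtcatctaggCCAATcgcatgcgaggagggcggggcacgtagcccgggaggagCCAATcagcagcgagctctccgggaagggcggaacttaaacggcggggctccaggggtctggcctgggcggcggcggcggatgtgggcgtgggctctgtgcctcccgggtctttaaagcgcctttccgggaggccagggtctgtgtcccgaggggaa
Tk1, chr11:117825965-117826264, minus strand: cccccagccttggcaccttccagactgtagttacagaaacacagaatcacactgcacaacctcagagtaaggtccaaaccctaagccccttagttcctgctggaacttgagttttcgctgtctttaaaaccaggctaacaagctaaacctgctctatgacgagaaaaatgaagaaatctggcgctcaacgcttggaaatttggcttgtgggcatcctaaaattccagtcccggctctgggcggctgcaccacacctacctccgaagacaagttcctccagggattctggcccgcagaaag
Top2a, chr11:99024140-99024439, minus strand: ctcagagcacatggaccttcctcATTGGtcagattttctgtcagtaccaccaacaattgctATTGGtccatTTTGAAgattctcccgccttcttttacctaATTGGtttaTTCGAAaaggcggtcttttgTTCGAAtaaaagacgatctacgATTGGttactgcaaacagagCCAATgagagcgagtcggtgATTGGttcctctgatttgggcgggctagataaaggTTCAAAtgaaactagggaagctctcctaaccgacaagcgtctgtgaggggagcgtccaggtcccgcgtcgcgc
Mcm7, chr5:138171834-138172133, minus strand: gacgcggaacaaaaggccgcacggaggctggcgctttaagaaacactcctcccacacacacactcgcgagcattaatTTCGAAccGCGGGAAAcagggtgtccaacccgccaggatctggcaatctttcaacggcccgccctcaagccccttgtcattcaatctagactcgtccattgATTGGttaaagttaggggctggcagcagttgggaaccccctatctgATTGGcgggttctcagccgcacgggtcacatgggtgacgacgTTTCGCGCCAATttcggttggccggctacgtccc
Lig1, chr7:13278576-13278875, plus strand: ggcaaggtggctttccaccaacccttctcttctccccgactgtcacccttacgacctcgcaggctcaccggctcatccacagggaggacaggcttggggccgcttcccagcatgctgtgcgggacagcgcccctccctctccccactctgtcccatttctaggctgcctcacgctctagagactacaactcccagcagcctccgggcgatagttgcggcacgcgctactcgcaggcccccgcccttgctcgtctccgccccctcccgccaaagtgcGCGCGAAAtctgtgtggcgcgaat

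Mcm5 holds a pair of overlapping E2F matches on opposite strands, which begin 153 and 149 bases before the start, and 3 CCAAT matches. Uhrf1 holds 1 E2F match at 185 bases before the start and 2 CCAAT matches. Mcm7 holds 2 E2F matches, at 165 bases before and 17 bases after the start, the last of which overlaps a CCAAT match. The 1 E2F match of Lig1 lies 27 bases after the start. Top2a has 0 E2F matches, 4 matches to the cell cycle homology letters and 6 to CCAAT, and the Tk1 window has no match to any of these letters. These are matches of letters in a window, not measured sites. Over all 32851 windows, 2.26% held at least 1 of the 4 E2F strings, TTTGAA occurred in 17.9%, TTCGAA in 1.56% and CCAAT in 37.4%. Of the 32 replication genes with a window, 12 held an E2F match, against 2.6% of all 27025 genes with a window. Among the 12 were 7 of the 16 genes with a window that were called lower at term after the filter. The rest, Cdc6, Cdt1, Mcm6, Orc1 and Pola1, were among the 16 with a window that were not called after the filter.

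Of the genes of origin licensing and the helicase, 5 of the 7 tested were lower at term over both genotypes. These were Mcm5, Mcm7, Mcm3, Mcm2 and Cdc45. Mcm5, a subunit of the Mcm2-7 helicase, had signals of 65.9, 46.9 and 31.7 in (-/-) and 22.2, 27.5 and 47.2 in (+/+) lungs at term. At E18.5 it had 254.5, 259.7, 159.8, 155.2 and 227.5 in (-/-) and 99.1, 263.7, 144.4, 206.7 and 196.3 in (+/+) lungs. Every term array lay below every E18.5 array, and the lowest E18.5 array was replicate I. The mean signal was 4.89-fold lower at term, a log2 difference of -1.92 (SE 0.19, adjusted p = 4.52e-07 from limma). The second probe set of Mcm5, which lay below the filter, had a difference of -0.77 (adjusted p = 0.013 in the fit of all probe sets).

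Mcm7, another subunit of the same ring, had 43.1, 26.6 and 70 in (-/-) and 18.5, 15.6 and 68.2 in (+/+) lungs at term, against 177, 115.7, 102.2, 78.3 and 120.4 in (-/-) and 122.2, 179.5, 145.3, 111 and 122.2 in (+/+) lungs at E18.5. The times did not overlap, although replicates H and P at term stood near the lowest E18.5 array, and the difference was -1.43 (SE 0.22, adjusted p = 3.77e-05). Mcm3 ranged from 37.1 to 70.9 at term and from 85.5 to 155.9 at E18.5, again without overlap, with a difference of -0.72 (SE 0.16, adjusted p = 0.00126). Mcm2 (-0.70, SE 0.17, adjusted p = 0.00203) and Cdc45 (-0.67, SE 0.15, adjusted p = 0.00144) were lower with some overlap of the times.

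The other subunits of the ring gave no call. Mcm4 ranged from 35.6 to 61.4 at term and from 29.1 to 148.7 at E18.5, a difference of -0.45 (SE 0.21, adjusted p = 0.0858) that was called without E18.5 (-/-) replicate B (adjusted p = 0.0351), and Mcm6 was at or below 21.6 on all arrays, under the filter. Cdt1, the loading factor, was the 1 tested replication gene above 0. Its signals of 95.2 to 183 at term overlapped those of 74.8 to 165.9 at E18.5, with a difference of 0.23 (SE 0.18, adjusted p = 0.307), and its second probe set gave -0.11 (adjusted p = 0.61). Geminin (Gmnn), the inhibitor of Cdt1, lay below the filter with a difference of -0.44, as did Cdc6 (-0.53), Orc1 (-0.43) and Orc2 (-0.13). Among these, Cdc6 was lower in the fit of all probe sets (adjusted p = 0.0429).

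Among polymerases, primase, clamp and loader, 3 of the 5 genes tested were lower at term. Pold2, the small subunit of DNA polymerase δ, had 90, 38 and 123.8 in (-/-) and 27.8, 36.7 and 92.1 in (+/+) lungs at term, against 70.2, 261.2, 65, 73 and 109.7 in (-/-) and 167.8, 375.7, 189.1, 74 and 187.6 in (+/+) lungs at E18.5. The times overlapped in both genotypes, replicates B and J were far above the rest of their groups, and the difference was -0.97 (SE 0.33, adjusted p = 0.0226). The call was lost without term replicate G, N or O (adjusted p = 0.0543, 0.0835 and 0.065). Pold1, its catalytic subunit, had 40.9 to 109.7 at term and 103.6 to 231.9 at E18.5, a difference of -0.75 (SE 0.18, adjusted p = 0.0025). Rfc2, a subunit of the clamp loader, had 82.6 to 153.3 at term and 171.2 to 307.4 at E18.5, with no overlap and a difference of -0.78 (SE 0.16, adjusted p = 0.000653).

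The clamp itself gave no call. Pcna had 130.4, 127.7 and 208.1 in (-/-) and 140.8, 173.2 and 201.5 in (+/+) lungs at term, and at E18.5 its signals ran from 106.2 to 301.9 in (-/-) and from 80.3 to 392.3 in (+/+) lungs. The term arrays lay inside the E18.5 range, and the difference was -0.18 (SE 0.26, 95% interval -0.73 to 0.37, adjusted p = 0.61). Pola2, the second subunit of polymerase α, had a difference of -0.26 (SE 0.17, adjusted p = 0.211). Its catalytic subunit Pola1 (-0.46) lay below the filter and was lower in the fit of all probe sets (adjusted p = 0.0409). Prim1, Prim2, Rfc1 and Rfc4 also lay below the filter, with differences from -0.66 to -0.13 and no call.

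Of the single-strand binding, flap, ligase and topoisomerase genes, 3 of the 4 tested were lower. Top2a, which untangles replicated chromosomes, had 30.2, 18.4 and 4.8 in (-/-) and 9.3, 12.3 and 7.9 in (+/+) lungs at term, against 67.3, 75.7, 46.4, 72.7 and 58.8 in (-/-) and 105.2, 128.1, 78.6, 61.1 and 88.7 in (+/+) lungs at E18.5. No term array reached the lowest E18.5 array, and the difference was -1.67 (SE 0.20, adjusted p = 2.64e-06). On the term arrays the bacterial controls with no added transcript averaged 3.58 to 6.54, so the ratio of mean signals, 5.66-fold lower at term, rests on values close to that level. Lig1, which joins Okazaki fragments, had 76.9, 53.3 and 79 in (-/-) and 35, 38.9 and 94.8 in (+/+) lungs at term, against 190, 208.4, 154.8, 164.9 and 180 in (-/-) and 186.7, 202.7, 162.1, 160.6 and 136.7 in (+/+) lungs at E18.5. Its times did not overlap, replicate P was the highest at term, and its difference was -1.32 (SE 0.17, adjusted p = 3.57e-06).

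Fen1, the flap endonuclease that trims those fragments, had 12.6 to 29.5 at term and 30.9 to 85.4 at E18.5, with no overlap and a difference of -0.88 (SE 0.19, adjusted p = 0.000847). Replication protein A, which coats single strands, gave no call for any subunit. Rpa1 had a difference of -0.33 (SE 0.21, adjusted p = 0.221), and Rpa2 and Rpa3, below the filter, had -0.07 and -0.08.

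**Figure D2:**
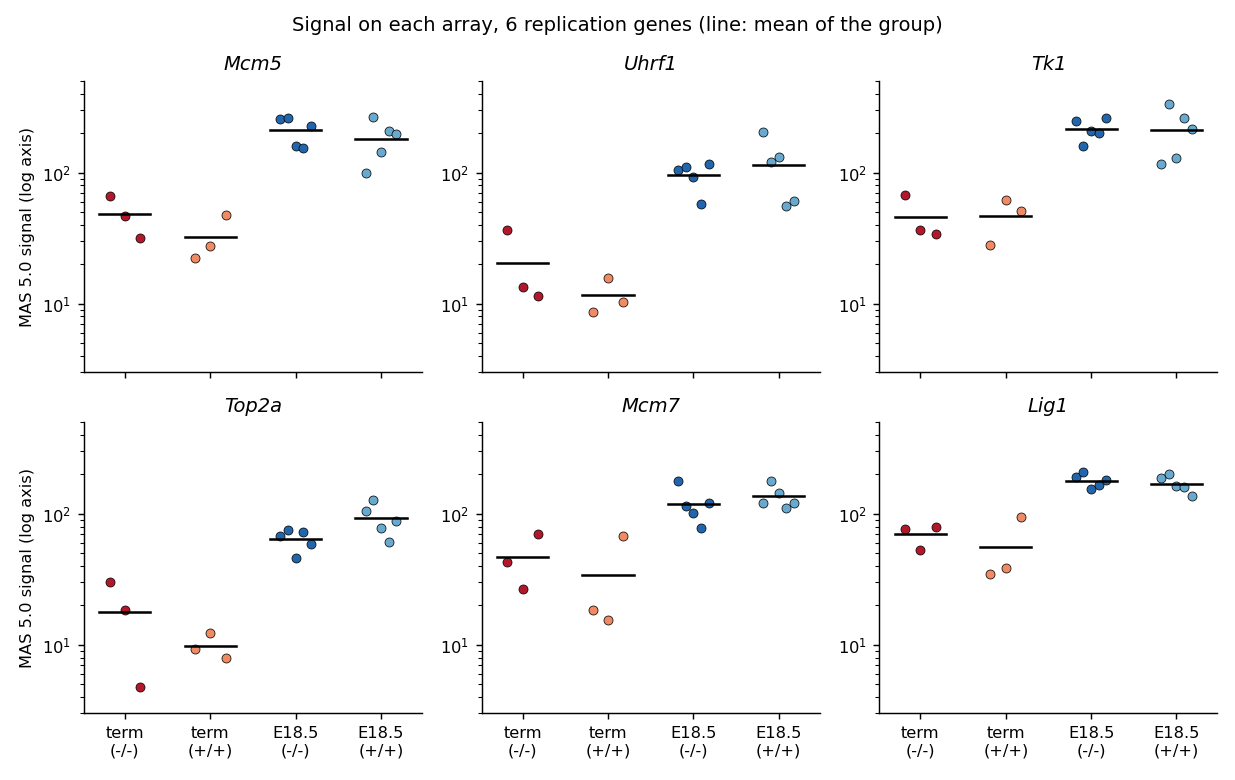
Signals of Mcm5, Uhrf1, Tk1, Top2a, Mcm7 and Lig1 on a log axis, 1 point per array, with (-/-) left of (+/+) at term and at E18.5. For each gene all 6 term arrays lie below all 10 E18.5 arrays, and the genotypes overlap within each time.

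All 3 nucleotide synthesis genes tested were lower at term. Tk1, the thymidine kinase of S phase, had 67.8, 36.7 and 34.1 in (-/-) and 28.1, 61.7 and 51.2 in (+/+) lungs at term, against 249.2, 160.8, 209.3, 201.9 and 260.1 in (-/-) and 115.8, 335.8, 129, 260.1 and 216 in (+/+) lungs at E18.5. The times did not overlap, and replicates I and K were the lowest at E18.5. The difference was -1.86 (SE 0.21, adjusted p = 1.09e-06), a 4.59-fold lower mean signal. Rrm2, the ribonucleotide reductase subunit whose level follows S phase, had 12.4 to 47.6 at term and 30.5 to 122.9 at E18.5, with a difference of -1.03 (SE 0.23, adjusted p = 0.00102).

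Rrm1, the large subunit, varied widely among the (+/+) lungs at term. It had 51.4, 47.9 and 49.7 in (-/-) and 24.6, 8.5 and 92.1 in (+/+) lungs at term, against 82, 29.6, 96.8, 62.3 and 110.6 in (-/-) and 61.6, 228.1, 112.5, 98.5 and 95.5 in (+/+) lungs at E18.5. The times overlapped in both genotypes, and the difference was -0.90 (SE 0.30, adjusted p = 0.0189). The call was lost without term replicate N or O (adjusted p = 0.0601 and 0.0727) and when each array was centred on its median (adjusted p = 0.0517). Dut, which removes dUTP, lay below the filter with a difference of 0.07.

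The 3 genes of chromatin and DNA methylation were all lower at term. Uhrf1, which guides the maintenance methyltransferase to newly copied DNA, had 36.7, 13.3 and 11.4 in (-/-) and 8.7, 15.7 and 10.2 in (+/+) lungs at term, against 104.7, 109.7, 93.2, 58 and 116.2 in (-/-) and 205.9, 120.6, 131.1, 55.4 and 60.7 in (+/+) lungs at E18.5. The times did not overlap, and replicate F was the highest at term. The difference was -1.89 (SE 0.23, adjusted p = 3.04e-06), and the mean signal was 6.60-fold lower, again with term signals near those of the bacterial controls. Dnmt1, that methyltransferase, had 88 to 181.8 at term and 221.2 to 386.1 at E18.5 with no overlap and a difference of -0.91 (SE 0.16, adjusted p = 0.000145). Chaf1a, the large subunit of the factor that loads histones behind the fork, was lower by -0.66 (SE 0.18, adjusted p = 0.00504) with some overlap.

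The second probe sets of 11 genes were mostly dim. Only Cdt1 and Pola2 (0.09, SE 0.23) had a second probe set above the filter, and neither was called. Over all 11, the differences ran from -0.77 for Mcm5 to 0.09 for Pola2. In the fit of all probe sets those of Mcm5 and of Rfc1 (-0.41, adjusted p = 0.0308) were lower and the other 9 were not called, among them those of Rrm1 (-0.40), Tk1 (-0.36), Dnmt1 (-0.17), Lig1 (-0.16) and Mcm3 (-0.13), whose brighter probe sets were called.

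In all, 10 of the 35 genes were lower without overlap between the 6 term and the 10 E18.5 arrays, and 0 were higher without overlap. Of all probe sets 3.71% were lower and 4.43% higher without overlap. For Mcm5, Mcm7, Mcm3, Rfc2, Top2a, Lig1, Tk1, Uhrf1 and Dnmt1 the 2-sided exact permutation p was 0.000125, the smallest that 6 arrays against 10 allow, and for Fen1 it was 0.00025. The median log2 signal of the 35 genes was 5.45 to 5.90 on the term arrays and 6.15 to 7.04 on the E18.5 arrays. Within E18.5 (+/+), where this median varied most (SD 0.40, against 0.11 in (-/-) lungs of that time), replicate J was highest for 18 of the genes and I for 11, and K was lowest for 13.

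Within each genotype, the change over time was fitted on its own arrays. In (-/-) lungs 15 of 22 genes tested were lower at term, with 0 higher, where 13% of the 6193 probe sets tested were lower. Their median was -0.67, against -0.06 over all probe sets tested. In the fit of all probe sets, 10 of the 35 genes were lower, against 5.17% of all, and the median was -0.45. In (+/+) lungs 12 of 22 were lower with 0 higher, where 7.99% of the 6145 probe sets tested were lower, and their median was -0.91, against -0.04. All probe sets together gave 8 of the 35 genes, against 2.56%, and a median of -0.68. By role, the calls in (-/-) and (+/+) lungs were 5 and 3 of 7 helicase and licensing genes, 2 and 2 of 5 polymerase, clamp and loader genes, 3 and 2 of 4 binding, flap, ligase and topoisomerase genes, 2 and 3 of 3 nucleotide genes and 3 and 2 of 3 chromatin genes.

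The calls over time were shared in part. How many of all probe sets were called in both genotypes was not counted, so the counts that follow have no share beside them. Dnmt1, Lig1, Mcm3, Mcm5, Mcm7, Rfc2, Rrm2, Tk1, Top2a and Uhrf1, 10 genes, were called in both genotypes. Another 5, Cdc45, Chaf1a, Fen1, Mcm2 and Pold1, were called in (-/-) lungs, and 2, Pold2 and Rrm1, in (+/+) lungs. The differences of the first 5 were near each other in the genotypes, from -0.86 to -0.66 in (-/-) and from -0.90 to -0.64 in (+/+) lungs. Those of Pold2 were -0.33 in (-/-) lungs (adjusted p = 0.561) and -1.62 in (+/+) lungs (adjusted p = 0.0112), and those of Rrm1 were -0.41 (adjusted p = 0.319) and -1.40 (adjusted p = 0.0319). The (+/+) call of Pold2 was lost without term replicate N or O (adjusted p = 0.0942 and 0.0515), and that of Rrm1 without either of these (adjusted p = 0.151 and 0.174) and without J or L at E18.5 (adjusted p = 0.078 and 0.0509). Top2a had -1.31 (SE 0.28) in (-/-) and -2.04 (SE 0.28) in (+/+) lungs.

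Many of these calls within a genotype depend on the setting. In (-/-) lungs 5 of the 15, Lig1, Mcm5, Tk1, Top2a and Uhrf1, were called in every alternative that tested them. The call of Pold1 was lost in 19 of 24 alternatives, that of Mcm3 in 14 of 22, that of Rrm2 in 10 of 22, that of Cdc45 in 9 of 23, that of Mcm2 in 8 of 23 and that of Rfc2 in 5 of 24. In (+/+) lungs 0 of the 12 were called in every alternative. The methods' t-test without a filter called 0 of 35 lower in these lungs, where it called 12 of 12422 probe sets lower. At an unadjusted p under 0.05 it gave 12 of the 35 lower, where 965 of the 12422 were. Mcm3 lost its call in (+/+) lungs in 15 of 23 alternatives, Rrm1 in 12 of 22, Rrm2 in 11 of 23 and Rfc2 in 11 of 24, while Top2a and Mcm7 each lost theirs in 1. Of the genes called in (-/-) lungs alone, Pold1 was called in (+/+) lungs in 5 of 24 alternatives, Fen1 in 4 of 20, Cdc45 in 2 of 22 and Mcm2 in 1 of 23.

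The count of calls within a genotype depends on single arrays. In (-/-) lungs it was 7 without term replicate G, where 506 of 6202 probe sets were lower. It was 8 without F, where 393 of 6191 probe sets were. In (+/+) lungs it was 6 without term replicate N, where 114 of 6098 probe sets were lower. With all arrays 803 of 6193 probe sets were lower in (-/-) and 491 of 6145 in (+/+) lungs, so calls over all probe sets fell as well. Without E18.5 (+/+) replicate I, 10 genes were lower in (+/+) lungs, where 525 of 6248 probe sets were, and the median of the genes tested was -0.92. Without the arrays of high heart signal, 5 of 21 genes were lower in (-/-) lungs with a median of -0.76, where 339 of 6235 probe sets were. In (+/+) lungs 6 of 23 were, with a median of -0.96, where 162 of 6197 probe sets were.

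The difference of the genotypes' changes, an interaction over all 16 arrays, was not called for any gene. Of 22 genes tested, 0 had an adjusted p under 0.05 in limma and 0 had an unadjusted p under 0.05, where 0% and 1.47% of the 6458 probe sets did, and the methods' t-test, run on the signals, also gave 0 and 0. The median difference was 0.18, against -0.01 over all probe sets tested. Pold2 came nearest with 1.29 (SE 0.63, unadjusted p = 0.0522), followed by Top2a with 0.73 (SE 0.38, unadjusted p = 0.0692) and Rrm1 with 0.99 (SE 0.58, unadjusted p = 0.0999). The intervals were wide. The 95% limits ran from -1.29 to 2.59 over the 22 genes, and 11 of the 22 intervals lay within 1 log2 unit of 0 while those of the other genes reached past it. Without term (+/+) replicate P, Mcm7, Pold2 and Rrm1 were above 0 at an unadjusted p under 0.05, 3 of 22, where 64 of 6473 probe sets were. Without E18.5 (+/+) replicate L, Pold2 and Top2a were, 2 of 24, where 37 of 6506 were. With array quality weights Mcm7, Pold2, Rrm1 and Top2a were, 4 of 22, where 142 of 6458 were. Pold2 alone was with a pseudocount of 1 or with Xist as a covariate, 1 of 22, where 41 and 44 of 6458 were. With no filter Pold2 alone was too, 1 of 35, where 97 of 12422 were. Without E18.5 (-/-) replicate B it was again Pold2 alone, 1 of 23, where 42 of 6441 were. The same held without term (-/-) replicate G, 1 of 22, where 35 of 6456 were. Without term (-/-) replicate H it was Top2a alone, 1 of 22, where 58 of 6460 were. None of these was called after adjustment.

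**Figure D3:**
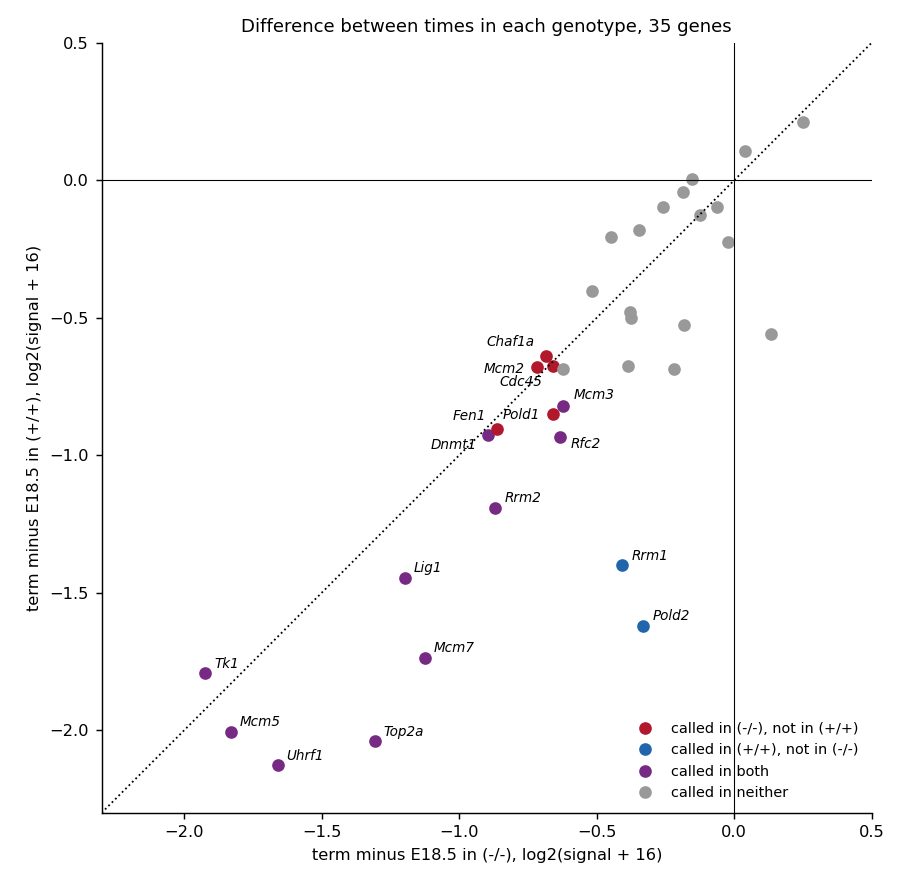
Difference between term and E18.5 in (-/-) lungs (horizontal) and in (+/+) lungs (vertical), in log2(signal + 16), for the 35 replication genes, coloured by the genotype in which they were called. The 10 genes called in both spread along the diagonal down to about -2 on each axis, and Pold2 and Rrm1 lie below it.

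The genotypes were then compared within each time. At term, 14 of the genes were tested and limma called 0 of them, where 0% of the 5885 probe sets tested were called in either direction. At an unadjusted p under 0.05 the count was also 0, against 0.68% of all probe sets in either direction, and the methods' t-test on the genes tested gave 0 and 0. Without term (+/+) replicate P, 4 of 13 genes, Lig1, Pold2, Rfc2 and Rrm1, were higher at an unadjusted p under 0.05, where 150 of 5956 probe sets were, and the median of the 13 was 0.29. Without (-/-) replicate G, Pold2 was, 1 of 16, where 23 of 5903 probe sets were. With array quality weights or with Xist as a covariate Pold2 was too, 1 of 14, where 38 and 18 of 5885 probe sets were. None of these was called after adjustment. With all arrays the median was 0.08, against 0.01 over all probe sets tested, and the differences ran from -0.16 for Mcm4 to 0.56 for Pold2 (SE 0.41, adjusted p = 1). All 14 of the 95% intervals covered 0, and 11 lay within 1 log2 unit of it.

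Rpa3 was the 1 gene of the 35 with separate genotypes at term. It had 33.1, 29.6 and 39.6 in (-/-) and 46.5, 47.1 and 43.5 in (+/+) lungs, a difference of -0.30 for a gene below the filter. The exact permutation p was 0.1, the smallest that 3 arrays against 3 allow. Of all probe sets, 2.45% were lower without overlap, and 4.53% had no overlap in either direction. In the methods' t-test without a filter, Rpa3 was the 1 gene of the 35 lower at an unadjusted p under 0.05, where 123 of 12422 probe sets were lower, and it was not called after adjustment. Pcna had a difference of -0.15 at term, with a 95% interval of -0.72 to 0.42.

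At E18.5, 22 genes were tested and limma called 0 of them, where 0.034% of the 5879 probe sets tested were lower and 0% higher. At an unadjusted p under 0.05, Mcm4 was lower, 1 of 22, against 2.62% of all probe sets, and 0 were higher, against 2.69%. The methods' t-test gave 0 at either threshold. Without (+/+) replicate L, 4 of 24 genes, Mcm4, Pold2, Rrm2 and Top2a, were lower at an unadjusted p under 0.05, where 149 of 5931 probe sets were. Without (+/+) replicate K, Mcm4 and Rrm2 were, 2 of 24, where 250 of 5910 probe sets were. With array quality weights Pold2 and Rrm2 were, 2 of 22, where 291 of 5879 probe sets were. With the Gapdh ratio as a covariate Mcm4 and Rrm2 were, 2 of 22, where 215 of 5879 were. In these fits 0 were called after adjustment. The median of the 22 genes was 0.02, against 0.04 over all probe sets tested, and for all 35 genes it was -0.06. Of the 95% intervals, 21 covered 0 and 18 lay within 1 log2 unit of it, with limits from -1.51 to 0.78 and a median half-width of 0.51.

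The lowest differences at E18.5 were those of Pold2 and Mcm4. Mcm4 had 76.1, 29.1, 36.7, 55.2 and 82.8 in (-/-) and 148.7, 130.4, 55.2, 73.4 and 71.7 in (+/+) lungs. Replicates I and J stood above the other 8 arrays, which overlapped, and the difference was -0.63 (SE 0.29, unadjusted p = 0.0444, adjusted p = 0.858, exact permutation p = 0.127). Without replicate I it was -0.47. Pold2, with the signals given above, had a difference of -0.73 (SE 0.37, adjusted p = 0.858), Rrm1 and Rrm2 each had -0.53, and Top2a had -0.42 (SE 0.21, adjusted p = 0.858, exact permutation p = 0.0635). Mcm5, Tk1, Uhrf1 and Lig1, with large differences over time, had genotype differences of 0.23, 0.11, -0.12 and 0.08.

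**Figure D4:**
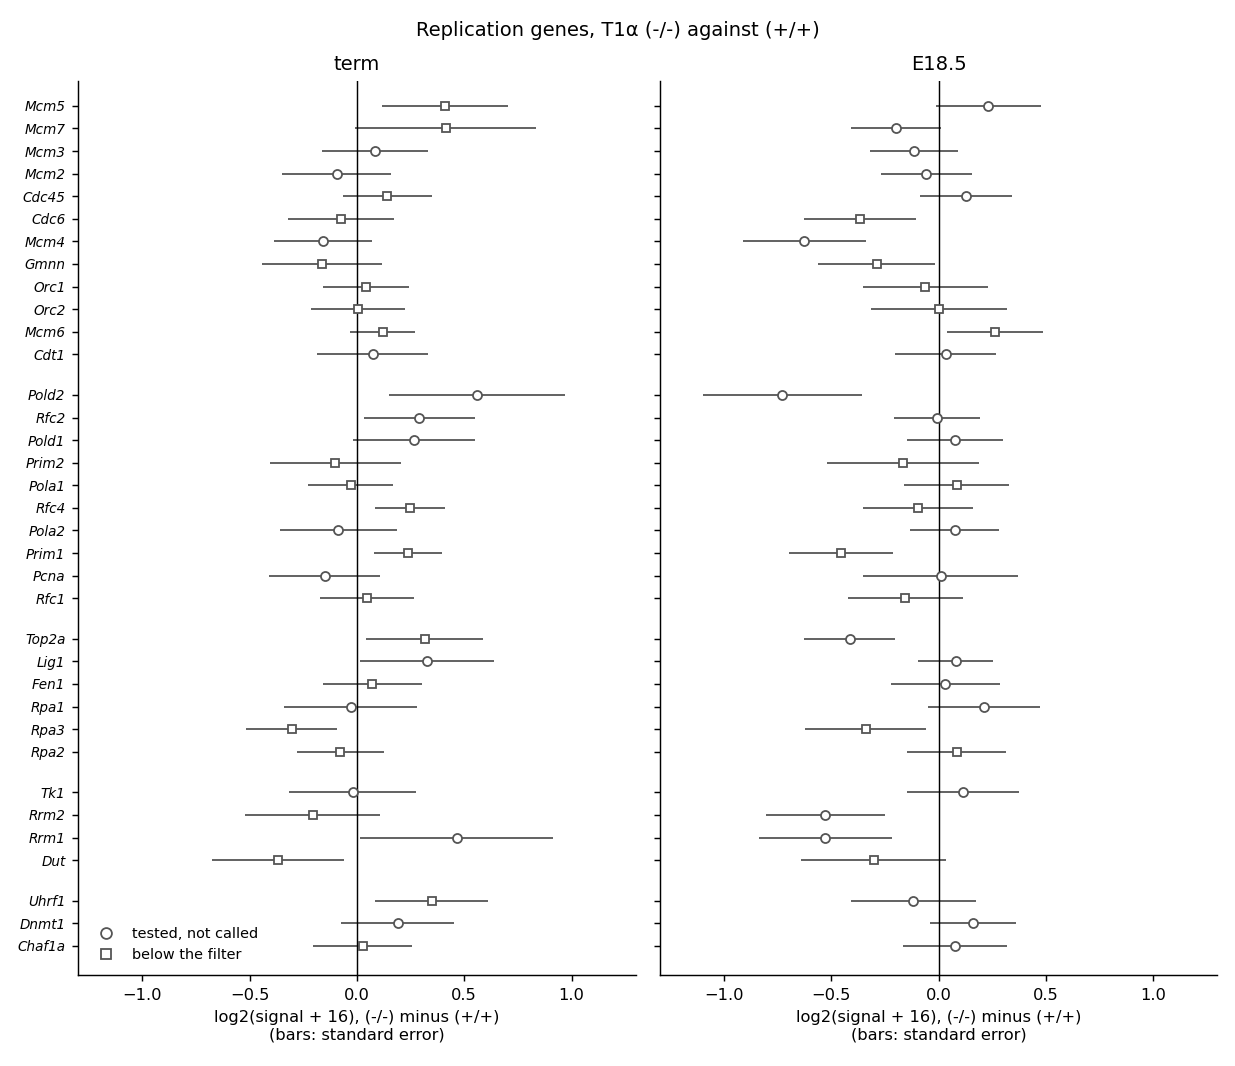
Difference between (-/-) and (+/+) lungs for the 35 replication genes in log2(signal + 16), at term (left) and at E18.5 (right), with bars for the SE and squares for genes below the filter. No gene was called at either time, and the tested genes run from -0.16 to 0.56 at term and from -0.73 to 0.23 at E18.5.

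Genes that act beside these in the cell cycle were compared over time in the same fit, in which 23.5% of all probe sets tested were lower and 21.5% higher, with a median of -0.06. Of the mitosis and chromosome segregation genes, 22 of 25 tested were lower at term over both genotypes and 1 was higher, with a median of -0.96. They included Birc5, a subunit of the chromosomal passenger complex (-1.62), Cdc20, an activator of the anaphase-promoting complex (-1.71), the spindle motor Kif11 (-1.51) and the cyclin Ccnb2 (-1.82). Of the E2F, cyclin and kinase genes of S phase entry, 5 of 12 were lower and 1 was higher, with a median of -0.27. Ccne1, the cyclin that starts S phase, had -1.28 (SE 0.14, adjusted p = 9.13e-07), Cks1b had -1.47 and Cdk4 -1.13, while E2f5, a repressor of the family, was higher by 1.17 (SE 0.19). The filter passes a gene through the time at which it is high. In the fit of all probe sets, 27 of 32 mitosis genes were lower and 1 higher. Of 19 genes of S phase entry 5 were lower and 2 higher, where 16.1% of all probe sets were lower and 11.3% higher.

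Lists of other fork and origin factors and of other nucleotide enzymes held calls in both directions. Of 17 other fork and origin factors tested, 6 were lower and 3 higher, with a median of -0.45, against 23.5% lower, 21.5% higher and a median of -0.06 over all probe sets tested. Pole3, a histone-fold subunit of polymerase ε, had -1.48 (adjusted p = 5.75e-06) and Rfc5 -0.77, while the histone chaperone Asf1a (0.79) and Top2b (0.63) were higher. Of 16 other nucleotide synthesis enzymes tested, 6 were lower and 2 higher with a median of -0.09, close to that of all probe sets. The mitochondrial folate enzyme Mthfd2 was higher by 1.42 (adjusted p = 8.15e-05), and Nme2, a nucleoside diphosphate kinase, was lower with -1.22. In the fit of all probe sets, 7 of 29 such factors were lower and 2 higher. Of 21 such enzymes 5 were lower and 1 higher there, where 16.1% of all were lower and 11.3% higher.

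Of 5 genes of a histone list tested, 4 histone genes and Slbp, which binds histone mRNA, 0 were lower and 2 were higher, with a median of 0.36. These were the linker histone gene H1f2 (2.30, SE 0.24, adjusted p = 5.22e-07) and the variant gene H2az1 (0.65, adjusted p = 0.0108). Between the genotypes at E18.5, the mitosis genes had 24 of 24 differences below 0 with a median of -0.35, where 44.5% of all probe sets tested were below 0. Of the 24, 5 were lower at an unadjusted p under 0.05, against 2.62% of all probe sets, and 0 after adjustment in limma. These were Smc2 (-0.79), Mki67 (-0.63), Smc4 (-0.62), Cdk1 (-0.51) and Mad2l1 (-0.51). For the replication genes 10 of the 22 differences lay below 0 in that comparison, against the same 44.5%. The filter passes a gene through the genotype in which it is high. Without it, 30 of 32 mitosis genes, with a median of -0.28, and 19 of 35 replication genes lay below 0, where 57.1% of all probe sets did. At term 5 of the 13 mitosis genes tested had a genotype difference below 0, with a median of 0.11, where 47.3% of all probe sets tested were below 0. Without the filter 9 of 32 were below 0 at term, where 49% of all probe sets were.

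**Figure D5:**
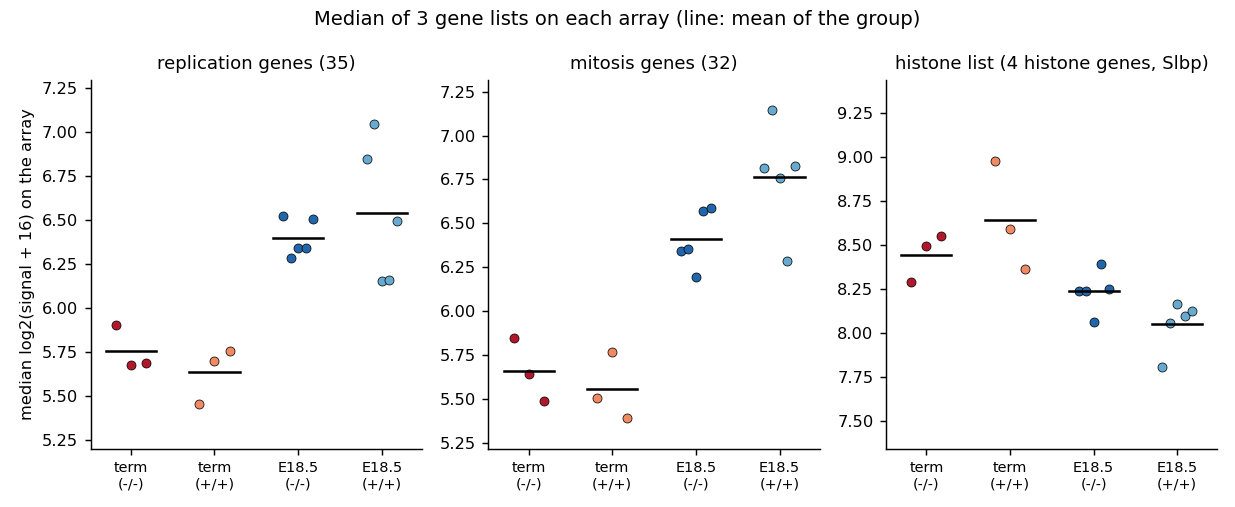
Median log2(signal + 16) on each array of the 35 replication, 32 mitosis and 5 histone list genes (4 histone genes and Slbp) with a probe set, with (-/-) left of (+/+) at term and at E18.5. The replication genes lie at 5.45 to 5.90 at term and 6.15 to 7.04 at E18.5, the mitosis genes at 5.39 to 5.85 and 6.20 to 7.14, and the histone list at 8.29 to 8.98 and 7.80 to 8.39.

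Some markers of cell types also differed between the times, in the fit in which 23.5% of all probe sets tested were lower at term and 21.5% higher. Of the erythroid markers, 5 of 7 tested were lower at term and 0 higher, and their summed signal over 11 genes was 838 to 1615 at term and 1477 to 4362 at E18.5. Alas2, which starts haem synthesis in red cells, had -1.46 (adjusted p = 0.00302), and Epb42 and Tal1 had mean signals under 20. Of the fibroblast and smooth muscle markers, 5 of 9 were lower, with sums of 7202 to 10827 at term and 10429.5 to 20804 at E18.5. Of the lung epithelial markers, 3 of 4 were lower and 1 higher, with sums of 11849 to 16884 at term and 19523 to 40181.5 at E18.5, while 0 of 10 endothelial markers were lower and 2 were higher, with sums of 3425 to 4432 at term and 2171 to 3760 at E18.5. In the fit of all probe sets, 16.1% were lower and 11.3% higher. There 7 of 11 erythroid, 5 of 9 fibroblast and smooth muscle, 3 of 5 lung epithelial and 0 of 10 endothelial markers were lower. Those higher were 1 lung epithelial and 2 endothelial markers.

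Of the liver markers, the 1 tested (Alb) was lower, with sums over 7 genes of 74.4 to 148 at term and 103 to 335 at E18.5 and with Afp and Fgb under 20 on average. Of the lymphocyte and thymus markers 1 of 3 tested was lower, against 23.5% of all probe sets tested. In that list 7 of the 12 with a probe set, Cd3d, Cd3e, Cd3g and Cd8a among them, averaged under 20. In the fit of all probe sets, 3 of 7 liver and 2 of 12 lymphocyte and thymus markers were lower, where 16.1% of all were. No marker was at 0 on any array. The Gapdh ratio was 0.827 to 2.63 at term and 0.96 to 1.72 at E18.5. With this ratio as a covariate, 16 of 22 replication genes were lower at term over both genotypes, with a median of -0.74, where 1411 of 6458 probe sets were. In (-/-) lungs 14 of 22 were, where 812 of 6193 probe sets were. In (+/+) lungs 8 of 22 were, where 297 of 6145 probe sets were. Beyond this covariate, the part of cell makeup and of RNA quality in the differences of the replication genes over time was not tested.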

How the data were processed

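The authors processed the arrays with Microarray Suite, and the deposited values are linear signal intensities, 1 per probe set, scaled to a trimmed mean, with 2% left out at either end, of 100.04 to 100.06 per array. Of 12488 probe sets, 66 controls were left out, and the platform annotation gave 1 symbol for 10833, several for 396 and none for 1193. Detection calls were not used here. Genotype and time came from the labels. Signals were compared as log2(signal + 16) by moderated tests with an intensity trend (limma 3.58.1, R 4.3.3), 2-sided, with p-values adjusted over all probe sets tested (5885 and 5879 for the genotypes at term and E18.5, 6193 and 6145 for the times in (-/-) and (+/+) lungs, 6458 for all arrays). The fits had 4 to 13 residual degrees of freedom, and the number of arrays limits their precision. Single genes were also compared with exact permutation tests of mean log2 values in Python 3.11.15. The fits were tested on simulated data first. All 35 genes are named, and of each related or marker list up to 4 genes of lowest p, with defining markers. E2f5, Mad2l1 and the markers named for low signals fall outside this rule and were chosen after their values were seen. Members and lists were chosen with earlier results of these data known. Beside 14 other alternatives, a filter on the mean signal, the methods' t-test without a filter and a fit without the 4 arrays of high heart signal were added after the data were seen. The macrophage, neutrophil and heart marker lists gave over time 2 lower and 2 higher of 8 tested, 1 lower and 2 higher of 6, and 0 of 8. Of all probe sets tested 23.5% were lower and 21.5% higher in that fit. Without the filter these lists gave 1 lower and 2 higher of 11, 1 lower and 2 higher of 10, and 0 of 8. Of all probe sets 16.1% were then lower and 11.3% higher.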

Additional observations from a re-analysis of the deposited data

Results flagged for a closer look

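Each of the 35 genes was checked for a replicate far from the others in the 2 groups of 5 arrays, 70 groups in all, by the gap to the nearest replicate as a share of the range (Dixon's ratio). Of these groups 5 stood out, and chance flags about 1 in 20 groups. Orc2 was 45.1 on E18.5 (-/-) replicate D with 12.2 as the next signal. Mcm2 was 138 on E18.5 (-/-) replicate A, with 90.6 next. Dnmt1 was 361.9 on E18.5 (+/+) replicate K, with 247.6 next. On the low side, Rrm2 was 30.5 on E18.5 (-/-) replicate C, with 53.7 next, and Fen1 was 39 on E18.5 (-/-) replicate B, with 56.5 next. The 5 signals lie on 5 different arrays. Without any one array, the replication genes called lower at term over both genotypes numbered 15 to 18, where 1184 of 6426 to 1586 of 6496 probe sets were lower.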

How the results depend on the processing

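No called result changed its direction under any alternative. Over both genotypes, 15 of the 17 genes called lower at term were called in every alternative that tested them. The exceptions were Pold2 and Rrm1. A stricter filter, which tests probe sets above the level reached by 25% of the values, tested 11 genes. Of these 8 were called lower, where 963 of 3805 probe sets were. A pseudocount of 64 gave a median of -0.54. Leaving out each array in turn gave 15 to 18 calls and medians of -0.90 to -0.75, where 1184 of 6426 to 1586 of 6496 probe sets were lower. In (-/-) lungs the calls over time numbered 6 with the 25% filter and 9 with the methods' t-test on signals, with or without a filter, and 5 without the 4 arrays of high heart signal, the median was -0.44 with a pseudocount of 64 and -0.45 without a filter, and leaving out each array gave 7 to 16 calls and medians of -0.72 to -0.66. In (+/+) lungs there were 7 calls with the 25% filter, 3 with the methods' t-test, 0 with that test and no filter, 6 without the 4 arrays of high heart signal and 5 with Xist as a covariate, and leaving out each array gave 6 to 13 calls and medians of -1.003 to -0.71. Calls over all probe sets moved too. In (-/-) lungs 803 of 6193 were lower in the main fit, 575 of 3589 with the 25% filter and 365 of 6193 with the methods' t-test. The count was 213 of 12422 for that test without a filter and 339 of 6235 without the 4 arrays. In (+/+) lungs these were, in the same order, 491 of 6145, 373 of 3584, 76 of 6145, 12 of 12422 and 162 of 6197, and 53 of 6145 with Xist. Leaving out each array gave 393 of 6191 to 895 of 6220 lower in (-/-) lungs. In (+/+) lungs it gave 114 of 6098 to 609 of 6179. The causes were not tested, beyond the smaller number of genes that the 25% filter tests. Between the genotypes, and for the difference of their changes, leaving out each array gave 0 calls, with medians of -0.08 to 0.06 at E18.5, -0.04 to 0.29 at term and -0.00 to 0.21 for the difference. No paired analysis was possible because the groups share no replicate letters. Signals near those of the bacterial controls limit the folds of Top2a and Uhrf1.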
